A study of Mus musculus with 18 samples.

Results

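The TNF superfamily is a set of trimeric ligands, mostly anchored in the plasma membrane and cut loose by proteases, and the receptors that bind them. Some receptors carry a death domain that can recruit caspases, others recruit TRAF adaptors, and both kinds feed the NF-kappaB transcription factors. In the kidney the family is best known for TNF and its pair of receptors in inflammation and tubular cell death, for TWEAK and its receptor Fn14 on injured tubules, and for the lymphotoxin, BAFF and costimulatory branches that lymphocytes and myeloid cells use. Members were taken from the deposited expression table of mouse kidney by their gene symbols, as Tnf, Lta, Ltb, Ltbr, Fas, Fasl, Cd27, Cd40, Cd40lg, Cd70, Ngfr, Edar, Eda2r and each numbered Tnfsf or Tnfrsf gene with a value above 0 in at least 3 of 18 libraries. This gave 44 of the 20825 genes in the table, 17 ligands and 27 receptors.

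The libraries were total RNA of kidneys of C57BL/6 mice aged 11 weeks, with no allele or drug named for any group. In the unilateral ischemia-reperfusion (UIR) groups the pedicle of the right kidney was closed for 45 min and reopened while the left kidney kept its blood flow. The control groups were sham operated. Kidneys were collected 1, 3 or 21 days later, which gave 6 groups of 3 biological replicates. The labels name neither the kidney that was sequenced nor the sex of the mice, and do not say whether a replicate is 1 animal. The p-values therefore measure the spread between these samples.

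Values are FPKM (fragment counts scaled to transcript length and to the mapped total of the library), which allow levels of different genes to be compared per length. They summed to between 424207 and 549490 per library. Read counts were not used here. In 155 genes seen in few libraries, the lowest value of a gene stands for about 1 read. By the median over genes it lay between 0.901 and 1.15 times its mean in every library. The genes were picked with a tolerance of 30%, so nearness to 1 was set in part by the selection and does not settle how far depth differed. UIR libraries of day 3 lay at 0.901 to 0.932 and sham libraries of day 3 at 1.04 to 1.15. Tubular markers checked the tissue: the summed FPKM of 5 proximal tubule markers ran from 1600 to 4267 in sham libraries and from 30.9 to 297 in UIR libraries of days 3 and 21. Sham libraries of day 1 stood apart from the later sham libraries, with a summed level of 5 injured tubule markers of 131 to 283 FPKM against 3.97 to 13.6. Differences at day 1 are against sham of day 1 unless later sham is named, and the change of control is given where it alters a call. The third UIR library of day 3 had the lowest summed markers of T cells (4.92 FPKM against 19.4 and 30.6), macrophages (185 against 280 and 393) and fibroblasts (91.3 against 189 and 276) in its group. It also had the lowest value of the group for 23 of 33 family members tested. The matching share of all genes was not determined, so this count is not read as a trait of the family.

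Of the 44 members, 33 reached 1 FPKM in at least 3 libraries and were tested (12 ligands and 21 receptors). The other 11, named further on, were below this filter. For 10 members every library reached 1 FPKM, and 5 members (Cd40lg, Fasl, Tnfrsf13b, Tnfsf14 and Tnfsf8) passed the filter through the UIR libraries of day 21 alone, so a difference at that day was built into their selection. Cd27, Tnfrsf14 and Tnfrsf26 reached 1 FPKM in fewer than 3 libraries outside that group, so they too would have failed the filter without it. Tnf, Tnfrsf9, Ngfr, Cd40, Eda2r, Tnfrsf4, Tnfsf15 and Tnfsf9 reached 1 FPKM in no sham library and passed through UIR libraries of more than 1 day. For them a higher level in UIR kidneys was built in part into the selection. Ltb and Tnfrsf23 reached it in sham only at 1.34 FPKM (day 3) and 1.03 FPKM (day 1). The group with the highest mean was UIR day 21 for 35 of the 44 members, UIR day 1 for 5, UIR day 3 for 3 and sham day 3 for 1. The matching share of all genes was not determined, and 60.7% of all genes tested were higher in UIR than in sham kidneys at day 21. The count is therefore not read as a trait of the family.

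Receptor transcripts exceeded ligand transcripts in every group. The receptor sum was 358 ± 31.6, 194 ± 19.5 and 169 ± 8.33 FPKM in the sham groups of days 1, 3 and 21, and 732 ± 95.6, 382 ± 14.6 and 344 ± 22.6 FPKM in UIR kidneys (SD, n = 3 each). The ligand sum was 33.6 ± 1.19, 31.2 ± 1.27 and 28.3 ± 1.77 FPKM in sham kidneys and 27.9 ± 1.35, 62.2 ± 6.08 and 175 ± 18.7 FPKM in UIR kidneys (SD, n = 3 each). Receptors thus had their highest sum in UIR kidneys of day 1 and ligands in UIR kidneys of day 21. The day-1 receptor sum was mostly 1 gene, since Tnfrsf12a made up 62.3% of all family FPKM in that group. In sham kidneys of days 3 and 21 the first ranks were taken by Tnfrsf21 (43.9% and 34.7% of family FPKM), Ltbr (18.9% and 23.1%) and Tnfrsf1a (8.94% and 11.1%). In UIR kidneys of day 21 they were taken by Tnfrsf1a (15.5%), Ltbr (10.1%) and Tnfrsf12a (8.95%), followed by Tnfsf13b (7.97%). Between 12 and 13 ligands reached 1 FPKM in UIR libraries of day 21, against 3 or 4 in each sham library, and between 22 and 23 receptors did, against 9 to 11. Of all genes, 14043 to 14156 reached 1 FPKM in UIR libraries of day 21 and 12000 to 12578 in sham libraries.

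Differences are given as log2(FPKM + 1), UIR minus sham of the same day, ± SE, with p-values from limma adjusted over 14716 genes and a threshold of 0.05. This scale understates changes of genes with low FPKM. Of the 33 members tested, 7 were higher and 5 lower at day 1, where 28.5% of all genes tested were higher and 31.1% lower, so both shares were below those of all genes. At day 3, 28 were higher and 1 lower, beside 57.6% and 17.9% of all genes. At day 21, 32 were higher and 1 lower, beside 60.7% and 20.1% of all genes. The members' median difference was 0.03, 0.83 and 1.77 at days 1, 3 and 21, and that of all genes was -0.03, 0.44 and 0.53, so the median gene itself was higher in UIR kidneys on this scale at days 3 and 21. Scalings that set the median gene near 0 left 25 members higher and 3 lower (median-of-ratios) or 16 and 3 (quantile normalization) at day 3, and 31 and 2 or 31 and 1 at day 21. The share of all calls that were higher fell under these scalings from 76.3% to 51.2% at day 3, and from 75.2% to 52.3% or 49.2% at day 21. Without the filter, all 44 members could be tested among 19540 genes. Then 9 were higher and 5 lower at day 1 (23.3% and 24.6% of all genes), 30 and 2 at day 3 (47.7% and 14.3%), and 42 and 1 at day 21 (55.2% and 15.9%).

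**Figure D1:**
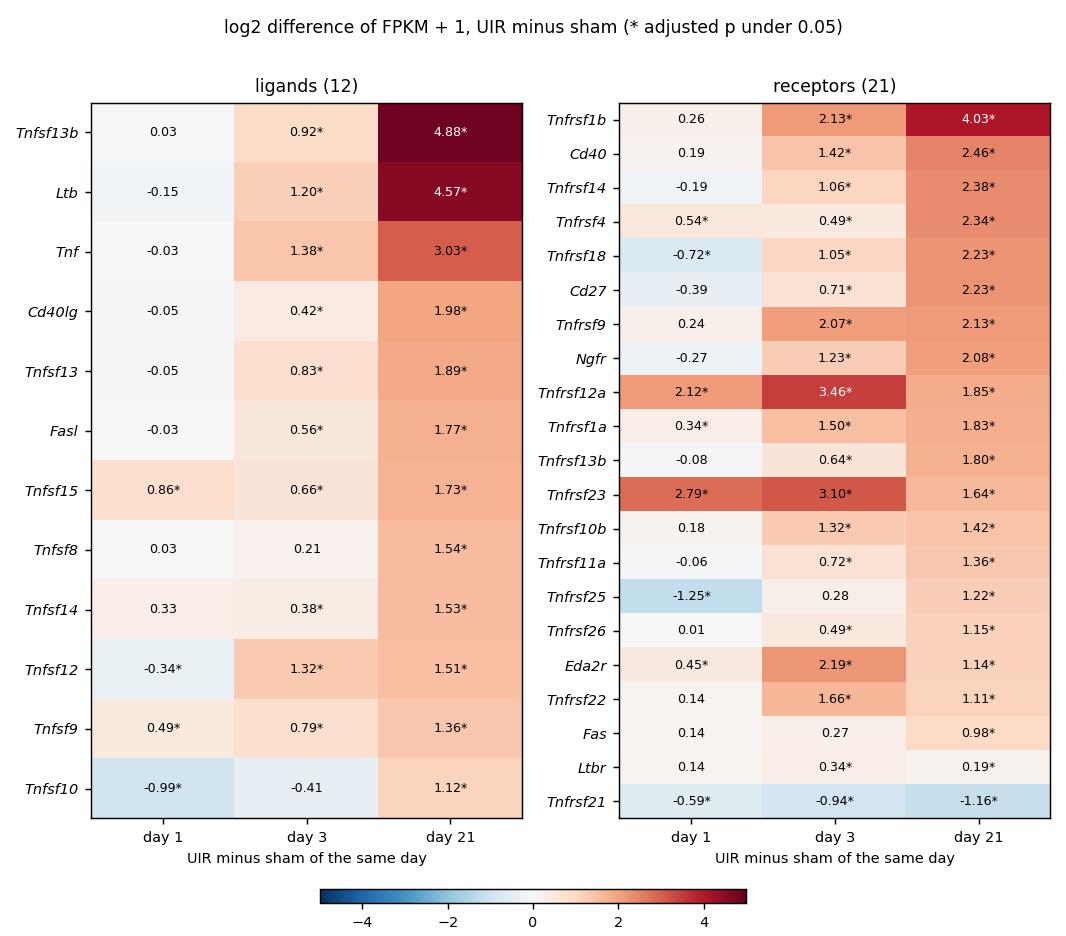
Log2 differences of FPKM + 1 between UIR and sham kidneys for the 12 ligands and 21 receptors tested, at days 1, 3 and 21 (columns), with an asterisk where the limma adjusted p was under 0.05. The day-21 column is positive for every gene except Tnfrsf21, while at day 1 the largest values are those of Tnfrsf23 (2.79) and Tnfrsf12a (2.12); Ltbr turned negative at days 3 and 21 under median-of-ratios scaling, and Fas, Tnfrsf26 and Tnfsf14 at day 3 under quantile normalization.

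Whether these changes follow fewer or more cells of a type, or less or more RNA per cell, cannot be told apart in whole kidney. Markers of other cells moved over the same days. At day 3 all 5 T cell markers, all 5 macrophage markers and all 5 fibroblast markers were higher in UIR kidneys, and at day 21 so were all 5 dendritic cell markers and both B cell markers tested, while all 5 proximal tubule markers were lower at both days. Summed T cell markers ran from 1.91 to 4.32 FPKM in sham libraries, from 0.83 to 1.75 in UIR libraries of day 1, from 4.92 to 30.6 at day 3 and from 77.6 to 101 at day 21. Macrophage markers summed to between 35.6 and 62.1 FPKM in sham libraries. In UIR libraries they summed to 46.0 to 51.8 FPKM at day 1, 185 to 393 at day 3 and 1226 to 1738 at day 21. The day-1 sum hides opposite moves, with 1 of 5 macrophage markers higher and 2 lower. Mean C1qa was 7.32 FPKM against 18.9 in sham of day 1, and mean Cd68 26.6 against 16.3. Of 5 dendritic cell markers, 0 were higher and 2 lower at day 1. Markers of lymphoid tissue summed to between 8.43 and 12.5 FPKM in sham libraries. In UIR libraries they summed to 2.71 to 5.54 FPKM at day 1, 5.95 to 22.2 at day 3 and 109.9 to 164 at day 21. All 3 tested were higher at day 21, and Ccl19 and Ccl21a (means 76.5 and 52.2 FPKM) made up most of that sum. The remaining marker, Cr2, was below the filter and lower at day 21 (0.25, 0.15 and 0.16 FPKM against 0.35, 0.44 and 0.31 in sham). Neutrophil markers were higher for 4 of 5 at day 1 (summed, 115 to 208 FPKM against 22.0 to 71.9 in sham), while the remaining one, Ly6g, was lower (mean 1.48 against 4.56 FPKM). Endothelial markers were higher for 4 of 5 at day 21 (summed, 195 to 226 FPKM against 68.3 to 110.3). Natural killer cell markers summed to at most 1.25 FPKM in sham libraries and 3.41 to 4.87 in UIR libraries of day 21, and 2 of them, Klrb1c and Ncr1, were at 0 in all 3 UIR libraries of day 1. No marker of the other lists named here was at 0 in all 3 libraries of a group. The part of these cells in the family's changes was not tested.

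Among the ligands, Tnf, the prototype of the family and a cytokine of activated macrophages and T cells, was scarcely detected in sham kidneys. Sham libraries held 0.31, 0.12 and 0.27 FPKM at day 1, 0.08, 0.2 and 0.05 at day 3, and 0, 0.12 and 0.12 at day 21. In UIR libraries Tnf stood at 0.36, 0.16 and 0.12 FPKM at day 1, 2.12, 1.98 and 1.57 at day 3, and 8.33, 5.25 and 10.8 at day 21. The groups overlapped at day 1, and at days 3 and 21 all UIR libraries lay above all sham libraries. The difference was -0.03 at day 1 (adjusted p = 0.91), 1.38 ± 0.17 at day 3 (adjusted p = 2.2e-06) and 3.03 ± 0.17 at day 21 (adjusted p = 1.8e-10).

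Ltb encodes lymphotoxin beta, which anchors the lymphotoxin heterotrimer that signals through the receptor Ltbr and is required for lymph node formation. Its sham values were 0.61, 0.57 and 0.39 FPKM at day 1, 0.98, 0.85 and 1.34 at day 3, and 0.17, 0.41 and 0.69 at day 21. The UIR values were 0.17, 0.47 and 0.51 FPKM at day 1, 6.25, 4.07 and 1.81 at day 3, and 30.4, 26.9 and 41.6 at day 21. The 3 UIR libraries of day 3 differed widely among themselves, with the third the lowest, yet all exceeded the sham libraries of that day. Ltb rose by 1.2 ± 0.26 at day 3 (adjusted p = 5.5e-04; 0.57 and adjusted p = 0.062 under quantile normalization) and 4.57 ± 0.26 at day 21 (adjusted p = 1.7e-10).

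Tnfsf14, the ligand LIGHT of the receptors Tnfrsf14 and Ltbr, and Tnfsf15, the ligand TL1A of Tnfrsf25, complete the tested part of this branch. Tnfsf14 was listed at 0.13, 0.1 and 0.23 FPKM at day 1, 0.34, 0.32 and 0.04 at day 3, and 0.21, 0.21 and 0.2 at day 21 in sham libraries. In UIR libraries it was at 0.45, 0.56 and 0.34 FPKM at day 1, 0.83, 0.58 and 0.39 at day 3, and 2.75, 1.75 and 3.1 at day 21. Only at day 21 did it exceed 1 FPKM, and it rose there by 1.53 ± 0.14 (adjusted p = 6.2e-08). At day 1 the difference of 0.33 ± 0.14 did not pass (adjusted p = 0.061) and did so without the third sham library of day 3 or the second or the third UIR library of day 21 (adjusted p = 0.049, 0.027 and 0.048). Its day-3 call (0.38 ± 0.14, adjusted p = 0.027) was lost without the third sham library (0.26, adjusted p = 0.14), the first UIR library (0.27, adjusted p = 0.13) or the second UIR library (0.38, adjusted p = 0.053) of day 3, and its sign turned under quantile normalization (-0.04).

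Tnfsf15 was among the few ligands to rise at day 1. Sham libraries held 0.43, 0.68 and 0.29 FPKM at day 1, 0.57, 0.39 and 0.46 at day 3, and 0.76, 0.89 and 0.45 at day 21. The UIR libraries held 1.99, 2.13 and 0.97 FPKM at day 1, 1.13, 1.36 and 1.49 at day 3, and 4.66, 4.4 and 4.74 at day 21. The groups did not overlap at any day, and the differences were 0.86 ± 0.16, 0.66 ± 0.16 and 1.73 ± 0.16 at days 1, 3 and 21 (adjusted p = 1.9e-04, 0.0012 and 3.6e-08; at day 3, 0.11 and adjusted p = 0.58 under quantile normalization).

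The death-inducing ligands Fasl and Tnfsf10 differed in level and in time course. Fasl, carried by cytotoxic T cells and natural killer cells, was at 0.03, 0.1 and 0.2 FPKM at day 1, 0, 0.04 and 0.04 at day 3, and 0.07, 0.14 and 0.13 at day 21 in sham kidneys. UIR kidneys had 0.17, 0.03 and 0.07 FPKM at day 1, 0.89, 0.67 and 0.09 at day 3, and 2.72, 2.25 and 3.48 at day 21. The third UIR library of day 3 lay close to the sham values, and the other two were clearly above them. Fasl rose by 0.56 ± 0.16 at day 3 (adjusted p = 0.0053; 0.27 and adjusted p = 0.13 under quantile normalization) and by 1.77 ± 0.16 at day 21 (adjusted p = 4.2e-08).

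Tnfsf10 encodes TRAIL, which triggers apoptosis through Tnfrsf10b, the only death-inducing TRAIL receptor of the mouse. It was well expressed without injury, with sham values of 6.01, 7.36 and 5.65 FPKM at day 1, 11.7, 10.9 and 14.8 at day 3, and 13.2, 6.77 and 12.5 at day 21. UIR values were 2.33, 2.31 and 3.48 FPKM at day 1, 10.3, 8.57 and 8.39 at day 3, and 26.6, 21.5 and 23.6 at day 21. It was lower than sham in every UIR library of days 1 and 3 and higher in every one of day 21. The difference was -0.99 ± 0.20 at day 1 (adjusted p = 4.1e-04) and 1.12 ± 0.20 at day 21 (adjusted p = 6.8e-05). At day 3 it was -0.41 ± 0.20 (adjusted p = 0.067), and it passed the threshold under median-of-ratios scaling (-0.90, adjusted p = 9.4e-04), quantile normalization (-0.91, adjusted p = 6.2e-04) and without the second sham library of day 21 (-0.41, adjusted p = 0.015), which enters through the shared estimate of spread.

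The costimulatory ligands Cd40lg, Tnfsf8 and Tnfsf9 sustain T and B cell responses. Cd40lg, the signal of helper T cells to Cd40 on B cells and myeloid cells, had sham values of 0, 0.1 and 0.05 FPKM at day 1, 0.05, 0.05 and 0.06 at day 3, and 0.1, 0.05 and 0.05 at day 21. Its UIR values were 0.05, 0 and 0 FPKM at day 1, 0.69, 0.53 and 0.09 at day 3, and 4.21, 3.2 and 2.38 at day 21. The rise of 1.98 ± 0.15 at day 21 (adjusted p = 5.1e-09) separated the groups by more than 2 FPKM, whereas the third UIR library of day 3 was close to the sham libraries. The day-3 call (0.42 ± 0.15, adjusted p = 0.019) was lost without the first (0.29, adjusted p = 0.10) or the second (0.37, adjusted p = 0.068) UIR library of that day and under quantile normalization (0.10, adjusted p = 0.55).

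Tnfsf8, the CD30 ligand of activated lymphocytes, was barely detected outside UIR kidneys of day 21. Sham libraries had 0, 0.03 and 0.03 FPKM at day 1, 0, 0 and 0 at day 3, and 0.03, 0.09 and 0.03 at day 21. UIR libraries had 0.06, 0.03 and 0.03 FPKM at day 1, 0.29, 0.17 and 0.02 at day 3, and 1.79, 2.2 and 2.19 at day 21. The difference at day 21 was 1.54 ± 0.09 (adjusted p = 2.9e-10). At day 3 it was 0.21 ± 0.09 (adjusted p = 0.051), and 0.21 became 0.30 (adjusted p = 0.0073) without the third UIR library of that day. It also passed without the first UIR library of day 21 (0.21, adjusted p = 0.041).

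Tnfsf9, a ligand of antigen-presenting cells for the T cell receptor Tnfrsf9, rose at every day. It measured 0.5, 0.37 and 0.61 FPKM at day 1, 0.16, 0.22 and 0.13 at day 3, and 0.16, 0.32 and 0.16 at day 21 in sham kidneys. In UIR kidneys it measured 1, 1.45 and 0.88 FPKM at day 1, 1.15, 1.07 and 0.87 at day 3, and 2.19, 2.23 and 1.92 at day 21. All UIR libraries lay above all sham libraries of the same day, with differences of 0.49 ± 0.11, 0.79 ± 0.11 and 1.36 ± 0.11 (adjusted p = 9.9e-04, 5.9e-06 and 8.0e-09).

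The B cell survival factors Tnfsf13b (BAFF) and Tnfsf13 (APRIL) are made mainly by myeloid and stromal cells. Tnfsf13b had the largest day-21 difference of the family. Sham libraries held 1.44, 1.6 and 1.34 FPKM at day 1, 0.53, 0.75 and 0.64 at day 3, and 0.38, 0.61 and 0.33 at day 21. UIR libraries held 1.36, 1.85 and 1.33 FPKM at day 1, 3.74, 2.13 and 1.01 at day 3, and 41.1, 37.8 and 45.4 at day 21. It rose from 0.44 ± 0.149 to 41.4 ± 3.81 FPKM at day 21 (SD, n = 3 each), a difference of 4.88 ± 0.21 (adjusted p = 1.4e-11). At day 3 the difference was 0.92 ± 0.21 (adjusted p = 8.4e-04; 0.34 and adjusted p = 0.11 under quantile normalization), with the third UIR library again nearest to the sham values. At day 1 it was 0.03 ± 0.21 (adjusted p = 0.93).

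Tnfsf13 varied little between replicates. The sham values were 4.17, 3.69 and 3.6 FPKM at day 1, 2.34, 1.73 and 2.38 at day 3, and 1.8, 2.08 and 1.96 at day 21. The UIR values were 3.47, 3.82 and 3.71 FPKM at day 1, 4.57, 4.92 and 4.3 at day 3, and 8.72, 11.1 and 10.0 at day 21. Day 1 showed overlapping groups (-0.05 ± 0.10, adjusted p = 0.73; against later sham 0.62 ± 0.09, adjusted p = 1.1e-05), and Tnfsf13 rose by 0.83 ± 0.10 at day 3 (adjusted p = 1.8e-06; 0.17 and adjusted p = 0.18 under quantile normalization) and 1.89 ± 0.10 at day 21 (adjusted p = 1.1e-10).

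Tnfsf12 encodes TWEAK, the ligand of Tnfrsf12a. It was the most abundant ligand in every sham group, with 21.1, 17.6 and 20.6 FPKM at day 1, 14.5, 14.3 and 12.4 at day 3, and 12.1, 14.5 and 12.8 at day 21. UIR kidneys had 15.2, 13.8 and 17.4 FPKM at day 1, 36.1, 35 and 35.9 at day 3, and 34, 39.8 and 44 at day 21. All UIR libraries lay below sham at day 1 and above sham at days 3 and 21. The rises were 1.32 ± 0.11 and 1.51 ± 0.11 (adjusted p = 1.9e-08 and 2.5e-09). The fall at day 1 was small (-0.34 ± 0.11, adjusted p = 0.013) and lost its call without the first sham library (-0.29, adjusted p = 0.055) or the second UIR library (-0.27, adjusted p = 0.066) of that day. Against the later sham libraries its sign turned (0.19, adjusted p = 0.088). Tnfsf12 and Tnfsf13 are neighbours on chromosome 11, and a readthrough transcript of both, Tnfsfm13, shares their reads. It was listed at 0.33 to 1.42 FPKM in sham libraries and at 2.12 to 3.75 in UIR libraries of days 3 and 21, so reads of the 3 genes may have been divided among them.

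Of the receptors, Tnfrsf12a (Fn14) was the most responsive in FPKM. It is a small receptor without a death domain that growth factors and injury induce in epithelium. The sham values were 122, 88.6 and 109.9 FPKM at day 1, 10.6, 17.1 and 10.0 at day 3, and 10.5, 11.5 and 15 at day 21. The UIR values were 578, 485 and 358 FPKM at day 1, 139, 161 and 135 at day 3, and 43.2, 50.2 and 46 at day 21. UIR libraries lay above the sham libraries of their day at each time, and their own level was highest at day 1 and lowest at day 21. The differences were 2.12 ± 0.20, 3.46 ± 0.20 and 1.85 ± 0.20 at days 1, 3 and 21 (adjusted p = 2.1e-07, 2.8e-10 and 2.6e-07). The sham libraries of day 1 were themselves above the later sham libraries by 3.02 ± 0.17 (adjusted p = 3.0e-09), which lowered the day-1 difference, and UIR day 1 exceeded later sham by 5.14 ± 0.17 (adjusted p = 1.0e-12). The injured tubule markers, which also stood high in sham libraries of day 1, summed to between 2995 and 4334 FPKM in UIR libraries of day 1, 1504 to 1912 at day 3 and 587 to 840 at day 21. Whether these cells carried the Tnfrsf12a transcripts was not tested.

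**Figure D2:**
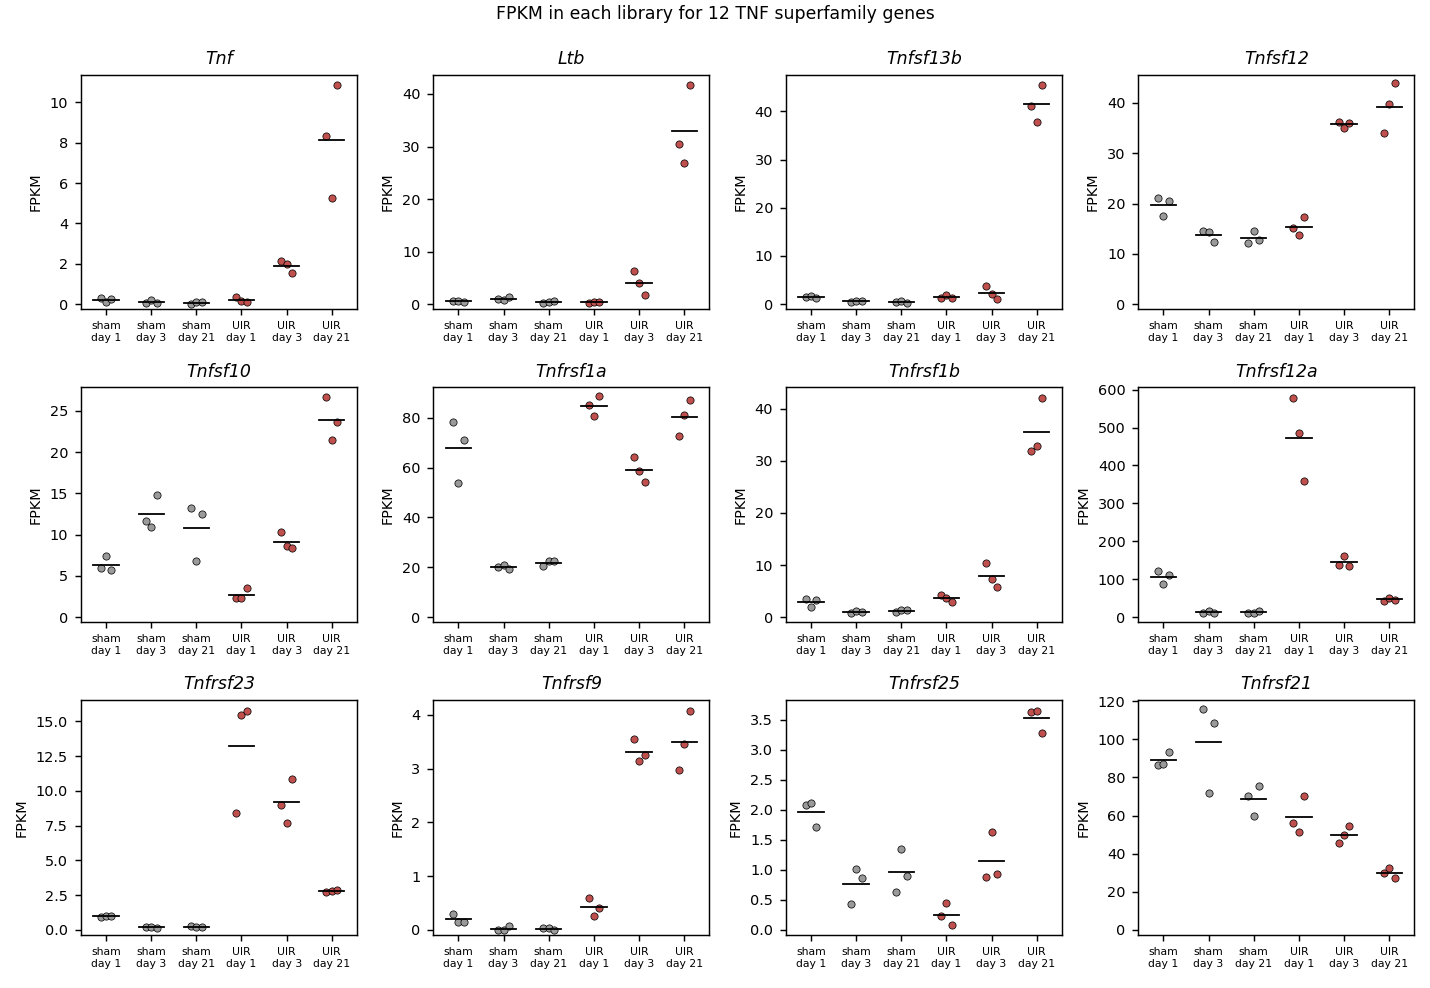
FPKM of 12 family members in each of the 18 libraries, with sham groups in grey, UIR groups in red and a black bar at each group mean of 3 libraries; axes are linear and differ between genes. Tnf, Ltb, Tnfsf13b and Tnfrsf1b reached their highest values in UIR kidneys of day 21, Tnfrsf12a and Tnfrsf23 in UIR kidneys of day 1, and Tnfrsf21 was below sham at each day.

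Promoter sequence is shown for 3 members with contrasting time courses, namely Tnfrsf12a (highest at day 1), Tnfrsf9 (raised at days 3 and 21) and Ltb (highest at day 21). Each is the 250 bases before the start site in RefSeq on GRCm38.p6, read 5′ to 3′ on the gene's strand. They lie at chr17:23677450-23677699 (minus strand), chr4:150927749-150927998 (plus strand) and chr17:35194257-35194506 (plus strand), and capitals mark matches to the kappa B consensus on either strand.
Tnfrsf12a: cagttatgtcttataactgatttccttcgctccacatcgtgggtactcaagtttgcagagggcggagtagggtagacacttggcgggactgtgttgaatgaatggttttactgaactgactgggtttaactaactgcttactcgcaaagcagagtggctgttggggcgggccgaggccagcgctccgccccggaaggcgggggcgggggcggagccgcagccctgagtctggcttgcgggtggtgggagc
Tnfrsf9: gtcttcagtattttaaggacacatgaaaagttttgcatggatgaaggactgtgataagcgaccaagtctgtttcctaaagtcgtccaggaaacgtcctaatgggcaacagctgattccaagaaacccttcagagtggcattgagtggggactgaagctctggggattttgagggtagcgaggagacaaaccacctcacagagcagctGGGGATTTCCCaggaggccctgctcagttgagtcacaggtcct
Ltb: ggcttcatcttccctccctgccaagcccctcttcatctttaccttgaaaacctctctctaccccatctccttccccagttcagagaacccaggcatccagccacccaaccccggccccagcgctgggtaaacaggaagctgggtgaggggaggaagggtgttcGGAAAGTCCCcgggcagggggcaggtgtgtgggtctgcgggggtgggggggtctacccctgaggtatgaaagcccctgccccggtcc
The RefSeq table held promoters for 34 of the 44 members, and 4 of these genes (Ltb, Tnfrsf25, Tnfrsf8 and Tnfrsf9) had a match, against 8.23% of the 27025 genes in it. The Ltb match begins 87 bases before the start site. Tnfrsf9 has a pair of overlapping matches 43 and 42 bases before 1 of its start sites, and Tnfrsf12a has none in this window. The other Tnfrsf9 promoter, at chr4:150919905-150920154, has 0 matches, and the one shown was picked because it holds matches. A link between matches and time course was not tested. A match describes letters only and does not show binding.

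Tnfrsf1a, the death domain receptor through which TNF acts on most cells, was at 78.4, 53.8 and 71.2 FPKM at day 1, 20.0, 21.1 and 19.2 at day 3, and 20.4, 22.7 and 22.4 at day 21 in sham kidneys. UIR kidneys had 85.1, 80.6 and 88.7 FPKM at day 1, 64.1, 58.8 and 54 at day 3, and 72.7, 81.1 and 87.2 at day 21. The later sham libraries were the low ones, and each UIR library exceeded the sham libraries of its day. The differences at days 3 and 21 were 1.50 ± 0.11 and 1.83 ± 0.11 (adjusted p = 7.7e-09 and 5.0e-10). At day 1 the difference was 0.34 ± 0.11 (adjusted p = 0.019). It became 0.18 (adjusted p = 0.13) without the second sham library of that day and 0.30 (adjusted p = 0.055) without the third UIR library. Against later sham it was 1.97 ± 0.10 (adjusted p = 7.9e-11).

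Tnfrsf1b, the second TNF receptor, is found mainly on leukocytes and endothelium. In sham libraries it was at 3.44, 1.95 and 3.23 FPKM at day 1, 0.86, 1.09 and 0.98 at day 3, and 1.03, 1.3 and 1.36 at day 21. UIR libraries had 4.15, 3.76 and 2.9 FPKM at day 1, 10.4, 7.31 and 5.8 at day 3, and 32, 32.9 and 42.1 at day 21. It had the largest day-21 difference among receptors, 4.03 ± 0.18 (adjusted p = 2.3e-11), after 2.13 ± 0.18 at day 3 (adjusted p = 3.4e-08) and 0.26 ± 0.18 at day 1, where the groups overlapped (adjusted p = 0.24).

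Fas, the death receptor for Fasl, and Ltbr, the lymphotoxin beta receptor of stromal and epithelial cells, were the tested members whose differences stayed under 1 at every day. Fas had group means of 7.55 ± 0.994, 4.51 ± 0.694 and 4.7 ± 0.058 FPKM in sham and 8.47 ± 1.41, 5.6 ± 0.403 and 10.2 ± 0.851 FPKM in UIR kidneys (SD, n = 3 each). It rose at day 21 (0.98 ± 0.12, adjusted p = 1.3e-06). At day 3 its difference of 0.27 ± 0.12 did not pass (adjusted p = 0.054), fell short of the shift of the median gene by -0.17, and was -0.38 under quantile normalization. It passed when any 1 of 5 libraries was left out, namely sham day 1 replicate 2 or 3 (0.27), sham day 3 replicate 2 (0.34), or UIR day 1 replicate 1 or 2 (0.27). Ltbr had means of 64.1 ± 2.13, 42.6 ± 1.63 and 45.6 ± 0.947 FPKM in sham and 70.9 ± 5.03, 54.2 ± 0.756 and 52.5 ± 4.8 FPKM in UIR kidneys (SD, n = 3 each). Its differences of 0.34 ± 0.07 and 0.19 ± 0.07 at days 3 and 21 passed (adjusted p = 5.4e-04 and 0.023), but relative to the median gene they were -0.10 and -0.34, and under median-of-ratios scaling -0.18 and -0.39. The day-21 call was lost without the first sham library (0.18, adjusted p = 0.068) or the second or the third UIR library of that day (0.15 and 0.16, adjusted p = 0.10 and 0.083), and at day 1 a call was gained without the second UIR library (0.20, adjusted p = 0.045).

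Tnfrsf21 (DR6), a death domain receptor of neurons and epithelia, was the only member tested that fell at all 3 days. Sham libraries held 86.3, 87 and 93.3 FPKM at day 1, 116, 71.6 and 108 at day 3, and 70.4, 60.0 and 75.3 at day 21. UIR libraries held 56.3, 51.3 and 70.2 FPKM at day 1, 45.6, 49.8 and 54.5 at day 3, and 30.1, 32.5 and 27.3 at day 21. Every UIR library was below every sham library of its day. The falls were -0.59 ± 0.16, -0.94 ± 0.16 and -1.16 ± 0.16 (adjusted p = 0.0039, 4.4e-05 and 3.5e-06). The proximal tubule markers, lower at days 3 and 21 as given above, moved the same way, and their part in this was not tested.

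Tnfrsf10b (the mouse TRAIL receptor) had sham values of 6.14, 5.54 and 6.78 FPKM at day 1, 4.5, 4.78 and 4.49 at day 3, and 3.65, 3.92 and 3.51 at day 21. In UIR kidneys it was at 7.38, 6.84 and 7.09 FPKM at day 1, 11.9, 13.1 and 13.9 at day 3, and 11.2, 11.5 and 12.1 at day 21. It rose at days 3 and 21 (1.32 ± 0.08 and 1.42 ± 0.08, adjusted p = 7.0e-10 and 1.9e-10). At day 1 the UIR libraries were just above the sham libraries (0.18 ± 0.08, adjusted p = 0.064), and without the third sham library of that day the difference passed (0.25, adjusted p = 0.027). Against later sham Tnfrsf10b was higher (0.66 ± 0.07, adjusted p = 4.0e-07).

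Tnfrsf25 (DR3), the death domain receptor of T cells for Tnfsf15, turned its direction. Sham libraries had 2.08, 2.11 and 1.71 FPKM at day 1, 0.43, 1.01 and 0.87 at day 3, and 0.63, 1.35 and 0.9 at day 21. UIR libraries had 0.24, 0.45 and 0.08 FPKM at day 1, 0.88, 1.64 and 0.93 at day 3, and 3.64, 3.65 and 3.29 at day 21. They lay below the sham libraries at day 1, overlapped them at day 3, and lay above them at day 21. The differences were -1.25 ± 0.17 (adjusted p = 9.6e-06), 0.28 ± 0.17 (adjusted p = 0.14) and 1.22 ± 0.17 (adjusted p = 4.4e-06; 0.30 and adjusted p = 0.11 under quantile normalization). Summed T cell markers were 0.83 to 1.75 FPKM in UIR libraries of day 1, below the 1.91 to 2.76 in sham libraries of that day, with a median difference of -0.28 and 0 of 5 markers past the threshold in limma (0 at an unadjusted p under 0.05). Their part in the fall of Tnfrsf25 was not tested. The size of this fall depended on the control, since sham libraries of day 1 were above later sham (0.68 ± 0.14, adjusted p = 0.0011 in limma). Against later sham the day-1 difference of Tnfrsf25 was -0.56 ± 0.14 (adjusted p = 0.0023), and the groups overlapped. With library weights it did not pass against later sham (-0.34, adjusted p = 0.13).

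Ngfr, the p75 neurotrophin receptor, is a death domain receptor of nerve and stromal cells. Its sham values were 0.5, 0.33 and 0.53 FPKM at day 1, 0.31, 0.36 and 0.42 at day 3, and 0.54, 0.59 and 0.48 at day 21. Its UIR values were 0.1, 0.31 and 0.2 FPKM at day 1, 3.23, 2.07 and 1.49 at day 3, and 5.47, 5 and 6.13 at day 21. UIR libraries were below sham at day 1 without passing (-0.27 ± 0.15, adjusted p = 0.12; adjusted p = 0.036 without the first UIR library of day 3) and above it at days 3 and 21 (1.23 ± 0.15 and 2.08 ± 0.15, adjusted p = 1.3e-06 and 1.8e-09).

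Cd40, the receptor by which T cells activate B cells, dendritic cells and macrophages, was at 0.89, 0.52 and 0.59 FPKM at day 1, 0.73, 0.42 and 0.7 at day 3, and 0.85, 0.61 and 0.87 at day 21 in sham kidneys. UIR kidneys were at 0.78, 1.08 and 0.85 FPKM at day 1, 3.88, 3.7 and 2.49 at day 3, and 7.87, 7.54 and 11.3 at day 21. Groups overlapped at day 1 and separated at days 3 and 21, with differences of 1.42 ± 0.16 and 2.46 ± 0.16 (adjusted p = 5.1e-07 and 5.6e-10). Tnfrsf14 (HVEM), the receptor of Tnfsf14 on lymphocytes, had 0.49, 0.44 and 0.42 FPKM at day 1, 0.29, 0.15 and 0.27 at day 3, and 0.51, 0.52 and 0.72 at day 21 in sham libraries. UIR libraries had 0.15, 0.45 and 0.22 FPKM at day 1, 2.21, 1.8 and 0.89 at day 3, and 5.68, 7.96 and 8.34 at day 21. The third UIR library of day 3 was again the lowest of its group, and Tnfrsf14 rose by 1.06 ± 0.17 at day 3 and 2.38 ± 0.17 at day 21 (adjusted p = 2.9e-05 and 1.9e-09).

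Tnfrsf11a (RANK), the receptor that drives osteoclast formation and is also found on dendritic cells, was lower in both day-1 groups than in later sham kidneys. Sham libraries had 0.64, 0.84 and 0.66 FPKM at day 1, 1.48, 1.1 and 1.86 at day 3, and 1.25, 1.88 and 1.16 at day 21. UIR libraries had 0.63, 0.68 and 0.62 FPKM at day 1, 3.43, 3.12 and 2.68 at day 3, and 5.29, 4.95 and 5.3 at day 21. It rose at days 3 and 21 (0.72 ± 0.12 and 1.36 ± 0.12, adjusted p = 6.2e-05 and 4.0e-08; at day 3, 0.07 and adjusted p = 0.61 under quantile normalization).

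Eda2r, a receptor of ectodysplasin and a target gene of p53, had its highest level at day 3. The sham values were 0.41, 0.5 and 0.47 FPKM at day 1, 0.07, 0.12 and 0.06 at day 3, and 0.11, 0.31 and 0.07 at day 21. UIR values reached 0.57, 1.24 and 1.27 FPKM at day 1, 3.16, 3.98 and 4.85 at day 3, and 1.72, 1.6 and 1.35 at day 21. Groups did not overlap at any day. The difference was 2.19 ± 0.14 at day 3 and 1.14 ± 0.14 at day 21 (adjusted p = 1.4e-09 and 1.9e-06). At day 1 it was 0.45 ± 0.14 (adjusted p = 0.013), a call lost without the second (0.37, adjusted p = 0.060) or the third (0.36, adjusted p = 0.059) UIR library of that day.

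Tnfrsf23 and Tnfrsf22 encode mouse decoy receptors that bind TRAIL without transmitting a death signal. Tnfrsf23 was low in sham kidneys, at 0.95, 1.03 and 0.97 FPKM at day 1, 0.19, 0.24 and 0.11 at day 3, and 0.27, 0.22 and 0.18 at day 21. UIR kidneys had 8.38, 15.5 and 15.7 FPKM at day 1, 8.96, 7.7 and 10.8 at day 3, and 2.72, 2.8 and 2.89 at day 21. Like Tnfrsf12a it was highest at day 1 and lowest at day 21 among UIR groups and raised in sham libraries of day 1 (0.72 ± 0.15 against later sham, adjusted p = 8.0e-04). It rose by 2.79 ± 0.17, 3.10 ± 0.17 and 1.64 ± 0.17 (adjusted p = 2.5e-09, 1.8e-10 and 1.8e-07).

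Tnfrsf22 was at 3.49, 3.26 and 3.16 FPKM at day 1, 2.61, 2.65 and 3.03 at day 3, and 3.17, 3.71 and 2.47 at day 21 in sham libraries. UIR libraries had 3.04, 3.94 and 4.38 FPKM at day 1, 10.3, 10.6 and 11.8 at day 3, and 7.42, 8.22 and 7.92 at day 21. Groups overlapped at day 1 (0.14 ± 0.12, adjusted p = 0.31; against later sham 0.28 ± 0.10, adjusted p = 0.022), and it rose at days 3 and 21 (1.66 ± 0.12 and 1.11 ± 0.12, adjusted p = 3.4e-09 and 2.4e-07). Both genes and Tnfrsf26 are neighbours on chromosome 7 and close relatives, so their reads may have been divided among them and each is uncertain as a single gene. Tnfrsf26 had sham values of 0.61, 0.63 and 0.73 FPKM at day 1, 0.43, 0.4 and 0.39 at day 3, and 0.64, 0.58 and 0.49 at day 21. Its UIR values were 0.73, 0.81 and 0.49 FPKM at day 1, 1.08, 0.96 and 0.9 at day 3, and 2.73, 2.39 and 2.36 at day 21. It differed by 0.01 ± 0.09 at day 1, 0.49 ± 0.09 at day 3 and 1.15 ± 0.09 at day 21 (adjusted p = 0.91, 1.1e-04 and 5.6e-09), with -0.03 at day 3 under quantile normalization.

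The costimulatory receptors of T cells, Tnfrsf4 (OX40), Tnfrsf9, Tnfrsf18 (GITR) and Cd27, were all higher at days 3 and 21, with differing onsets. Tnfrsf9, which activated T cells induce, had 0.29, 0.15 and 0.15 FPKM at day 1, 0, 0 and 0.08 at day 3, and 0.03, 0.03 and 0 at day 21 in sham libraries. UIR libraries had 0.59, 0.26 and 0.41 FPKM at day 1, 3.56, 3.15 and 3.25 at day 3, and 2.97, 3.46 and 4.07 at day 21. The UIR values of days 3 and 21 overlapped each other and lay far above sham. The differences were 0.24 ± 0.11 (adjusted p = 0.058), 2.07 ± 0.11 (adjusted p = 8.2e-11) and 2.13 ± 0.11 (adjusted p = 4.5e-11). The day-1 difference passed without the first sham library (0.30, adjusted p = 0.043) or the second UIR library (0.33, adjusted p = 0.021) of that day, or without the first or the third UIR library of day 21 (adjusted p = 0.045 and 0.044). Against later sham it was 0.47 ± 0.09 (adjusted p = 2.4e-04).

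Tnfrsf4 stood at 0.32, 0.56 and 0.6 FPKM at day 1, 0.17, 0.12 and 0.75 at day 3, and 0.51, 0.4 and 0.39 at day 21 in sham kidneys. UIR kidneys had 1.13, 1.03 and 1.33 FPKM at day 1, 0.71, 1.14 and 0.73 at day 3, and 5.57, 5.65 and 7.8 at day 21. It rose by 0.54 ± 0.16 at day 1 and 2.34 ± 0.16 at day 21 (adjusted p = 0.009 and 1.5e-09). The groups overlapped at day 3, where the call (0.49 ± 0.16, adjusted p = 0.012) was lost without the first or second sham library (0.40 and 0.37, adjusted p = 0.057 and 0.066) or the second UIR library (0.38, adjusted p = 0.063) and was 0 under quantile normalization. Its neighbour on chromosome 4, Tnfrsf18, a receptor of regulatory and activated T cells, had 2.08, 2.76 and 1.31 FPKM at day 1, 1.37, 1.1 and 1.27 at day 3, and 1.45, 1.15 and 1.22 at day 21 in sham libraries. In UIR libraries it had 0.65, 0.59 and 1.28 FPKM at day 1, 4.67, 3.89 and 2.64 at day 3, and 9.95, 8.17 and 11 at day 21. It fell at day 1 (-0.72 ± 0.19, adjusted p = 0.0037) and rose at days 3 and 21 (1.05 ± 0.19 and 2.23 ± 0.19, adjusted p = 1.0e-04 and 1.7e-08; at day 3, 0.40 and adjusted p = 0.071 under quantile normalization), and against later sham the day-1 difference did not pass (-0.31, adjusted p = 0.097).

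Cd27, the receptor of Cd70 on naive and memory lymphocytes, had 0.51, 0.62 and 0.5 FPKM at day 1, 0.41, 0.49 and 0.25 at day 3, and 0.39, 0.45 and 0.47 at day 21 in sham libraries. The UIR libraries had 0.28, 0.07 and 0.18 FPKM at day 1, 1.94, 1.64 and 0.48 at day 3, and 5.79, 5.07 and 6.38 at day 21. All UIR values were below sham at day 1, but the difference did not pass (-0.39 ± 0.18, adjusted p = 0.076; adjusted p = 0.0037 without the third and 0.046 without the first UIR library of day 3). The third UIR library of day 3 fell within the sham range. Cd27 rose by 0.71 ± 0.18 at day 3 and 2.23 ± 0.18 at day 21 (adjusted p = 0.0024 and 1.2e-08; at day 3, 0.18 and adjusted p = 0.36 under quantile normalization). Tnfrsf13b (TACI), a B cell receptor of both Tnfsf13 and Tnfsf13b, was listed at 0, 0.09 and 0.08 FPKM at day 1, 0, 0.09 and 0 at day 3, and 0.18, 0.18 and 0 at day 21 in sham kidneys. UIR kidneys had 0, 0 and 0 FPKM at day 1, 0.74, 0.82 and 0.31 at day 3, and 3.23, 2.33 and 3.14 at day 21. It rose at days 3 and 21 (0.64 ± 0.13 and 1.80 ± 0.13, adjusted p = 2.2e-04 and 1.8e-09). B cell markers were scarce at day 3: 4 of them summed to between 1.30 and 1.95 FPKM in UIR libraries and to between 1.37 and 2.58 in sham libraries, against 9.44 to 11.3 in UIR libraries of day 21.

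The 11 members below the filter were tested only without it, as counted above. The ligands among them were Lta (lymphotoxin alpha), Cd70, Tnfsf4, Tnfsf11 (RANKL) and Tnfsf18. Lta was listed at 0.04, 0.13 and 0.09 FPKM at day 1, 0, 0 and 0 at day 3, and 0.09, 0.05 and 0.04 at day 21 in sham libraries. UIR libraries held 0.14, 0.23 and 0.45 FPKM at day 1, 0.46, 0.31 and 0.47 at day 3, and 1.44, 0.88 and 1.5 at day 21, and so had the highest values at day 21. Tnfsf11, the ligand of Tnfrsf11a, was at 0 in 7 of 9 sham libraries and at 0.68, 0.55 and 0.74 FPKM in UIR libraries of day 21. Tnfsf18 was the exception in time, with 0.19, 0.5 and 0.15 FPKM in UIR libraries of day 1 and at most 0.11 FPKM in any other library. Cd70 and Tnfsf4 did not exceed 0.41 and 0.14 FPKM. Of the receptors, Edar reached 1.19, 1.29 and 0.88 FPKM, Tnfrsf11b (the secreted RANKL decoy osteoprotegerin) 0.9, 0.82 and 1.45 and the BAFF receptor Tnfrsf13c 1.36, 0.75 and 1.34 in UIR libraries of day 21, with no value above 0.44 FPKM elsewhere for any of the 3. Tnfrsf8, Tnfrsf17 and Tnfrsf19 stayed at or below 0.49 FPKM in every library.

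How the UIR effect itself changed between days was tested as a difference of differences. These contrasts share libraries, so each is read alone. From day 1 to day 3 the effect was larger for 22 of 33 members and smaller for 0, beside 50.1% and 12.7% of all genes (limma; 23 and 0 members at an unadjusted p under 0.05). The largest gains were in Tnfrsf1b (1.87 ± 0.26, adjusted p = 1.7e-05), Tnfrsf9 (1.83 ± 0.15, adjusted p = 6.9e-08), Tnfrsf18 (1.77 ± 0.27, adjusted p = 3.5e-05) and Eda2r (1.74 ± 0.20, adjusted p = 2.9e-06). Under quantile normalization 14 were larger and 2 smaller. From day 3 to day 21 the effect was larger for 23 members and smaller for 4, beside 26.1% and 20.2% of all genes. The gains were led by Tnfsf13b (3.96 ± 0.30, adjusted p = 7.0e-08), Ltb (3.37 ± 0.37, adjusted p = 3.5e-06), Tnfrsf1b (1.90 ± 0.26, adjusted p = 3.1e-05) and Tnfrsf4 (1.86 ± 0.23, adjusted p = 1.2e-05). The 4 whose effect shrank were the receptors Tnfrsf12a (-1.62 ± 0.28, adjusted p = 2.3e-04), Tnfrsf23 (-1.46 ± 0.24, adjusted p = 1.5e-04), Eda2r (-1.05 ± 0.20, adjusted p = 6.2e-04) and Tnfrsf22 (-0.54 ± 0.17, adjusted p = 0.014). Of the ligands, 11 of 12 had a larger effect at day 21 than at day 3 and 0 a smaller one, the remaining one being Tnfsf12 (0.19 ± 0.15, adjusted p = 0.34). The ligands Cd40lg, Fasl, Tnfsf14 and Tnfsf8 and the receptors Cd27, Tnfrsf13b, Tnfrsf14 and Tnfrsf26 passed the filter only with the UIR libraries of day 21. For them a larger effect at that day was built in part into the selection.

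Between days 1 and 21 the effect was larger for 29 members and smaller for 2, beside 54.1% and 16.3% of all genes. The 2 were Tnfrsf23 (-1.15 ± 0.24, adjusted p = 4.6e-04; -0.39 and adjusted p = 0.30 with a pseudocount of 0.1) and Tnfrsf21 (-0.58 ± 0.22, adjusted p = 0.028). The Tnfrsf21 call rested on single libraries: leaving out any 1 of 6 (replicates 1 and 2 of sham day 1, 1 and 3 of sham day 21, 3 of UIR day 1 and 3 of UIR day 21) gave adjusted p of 0.050 to 0.076. Tnfrsf12a had effects at days 1 and 21 that were not told apart (-0.28 ± 0.28, adjusted p = 0.38; -0.89 and adjusted p = 0.018 under median-of-ratios scaling), and Ltbr likewise (0.05 ± 0.10, adjusted p = 0.67; -0.57 and adjusted p = 3.0e-04 under median-of-ratios scaling).

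The sham kidneys of day 1 bear on each day-1 value. Compared with the mean of the later sham groups, 13 of 33 members were higher and 2 lower in them, beside 31.9% and 14.1% of all genes. Receptors led: Tnfrsf12a (3.02), Tnfrsf1a (1.63 ± 0.10, adjusted p = 6.3e-09) and Tnfrsf1b (0.86 ± 0.16, adjusted p = 3.8e-04). The 2 lower members were Tnfsf10 (-0.76 ± 0.17, adjusted p = 0.0017) and Tnfrsf11a (-0.51 ± 0.11, adjusted p = 0.0011). UIR kidneys of day 1 against the same later sham groups had 15 members higher and 4 lower, beside 39.6% and 32.0% of all genes. The 4 lower were Tnfsf10 (-1.75 ± 0.17), Tnfrsf11a (-0.57 ± 0.11), Tnfrsf25 (-0.56 ± 0.14) and Tnfrsf21 (-0.46 ± 0.13), with adjusted p of 1.4e-07, 1.7e-04, 0.0023 and 0.006. Against this control Tnfrsf1b (1.13 ± 0.16, adjusted p = 1.0e-05), Fas (0.75 ± 0.10, adjusted p = 7.2e-06), Ltbr (0.67 ± 0.06, adjusted p = 1.0e-07) and Tnfsf13b (0.71 ± 0.18, adjusted p = 0.0023) were higher, although none of them passed against sham of day 1. Tnf did not pass against either control (-0.03 ± 0.17 and 0.15 ± 0.15, adjusted p = 0.91 and 0.4).

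**Figure D3:**
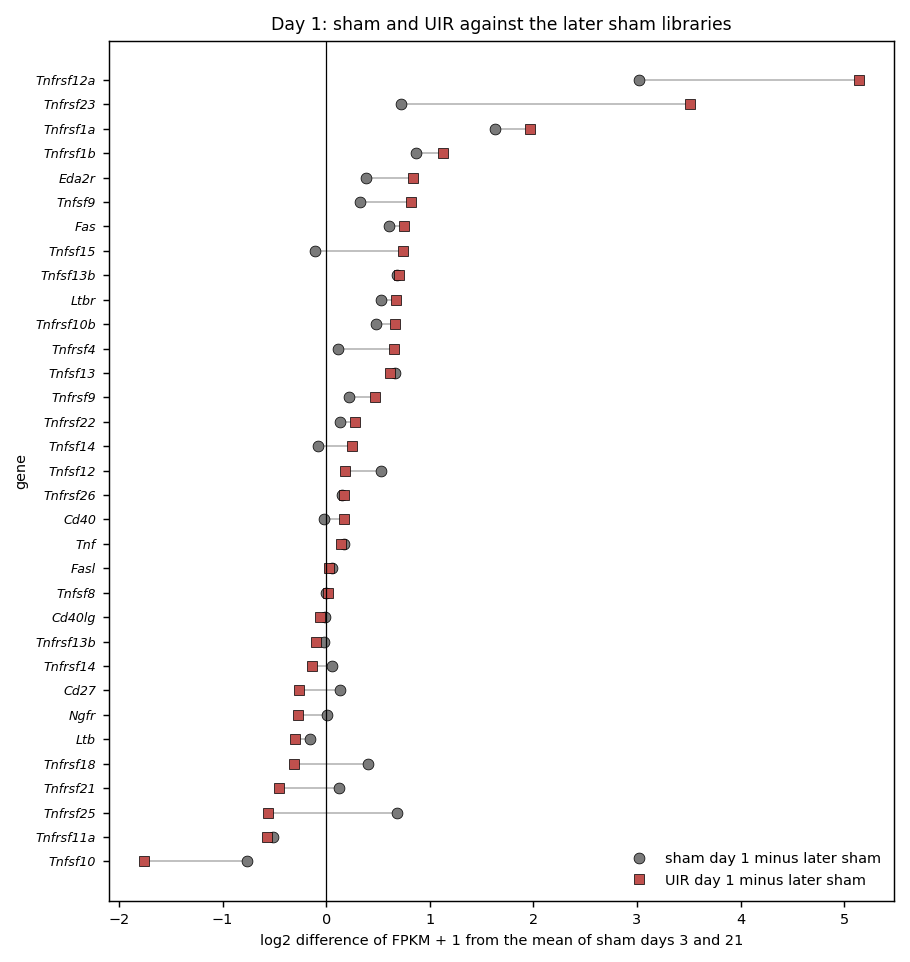
Log2 differences of FPKM + 1 of sham day 1 (grey circles) and UIR day 1 (red squares) from the mean of the sham groups of days 3 and 21, for the 33 members tested, ordered by the UIR value; the grey line between them is the UIR minus sham difference at day 1. For Tnfrsf1a, Tnfrsf1b, Tnfsf13 and Tnfsf13b the circle lies nearly as far from 0 as the square, or farther, while for Tnfrsf12a and Tnfrsf23 the square lies well beyond it.

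Downstream of the receptors, a list of 19 adaptors and death signalling genes had 5 higher and 6 lower in UIR kidneys at day 1, 17 and 0 at day 3, and 17 and 1 at day 21, with median differences of 0.05, 0.63 and 0.85. Of all genes tested, 28.5% were higher and 31.1% lower at day 1, 57.6% and 17.9% at day 3, and 60.7% and 20.1% at day 21, so the list's day-1 counts lay near the background. At day 1 the largest changes were rises of the inhibitor of apoptosis Birc3 (1.10 ± 0.16) and the adaptors Traf6 (0.92 ± 0.09), Traf3 (0.62 ± 0.09) and Tank (0.39 ± 0.14), and falls of Traf5 (-0.68 ± 0.13), the death adaptor Fadd (-0.66 ± 0.10) and the linear ubiquitin ligase subunits Rbck1 (-0.54 ± 0.08) and Rnf31 (-0.45 ± 0.11), at adjusted p of 0.026 or lower. Birc3 and Traf1, both known target genes of NF-kappaB, led at day 3 (2.46 ± 0.16 and 1.84 ± 0.17), followed by Traf2 (1.60 ± 0.12) and Traf3 (1.48 ± 0.09). At day 21 the largest were Birc3 (3.40 ± 0.16), Traf1 (2.90 ± 0.17), Birc2 (1.83 ± 0.10) and Traf2 (1.64 ± 0.12), and Traf4 was the 1 that fell (-0.29 ± 0.11, adjusted p = 0.024).

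A list of 18 genes of the NF-kappaB arm had 8 higher and 3 lower at day 1, 17 and 1 at day 3, and 17 and 1 at day 21, with medians of 0.19, 1.35 and 1.63, beside the same shares of all genes (28.5% and 31.1%, 57.6% and 17.9%, 60.7% and 20.1%). The subunits Rela (1.27 ± 0.09) and Rel (0.89 ± 0.14) and the feedback inhibitors Nfkbia (1.16 ± 0.17) and Tnfaip3 (0.99 ± 0.18) rose most at day 1, and the kinase subunit Ikbkg (-0.64 ± 0.11), Tab1 (-0.40 ± 0.10) and Nfkbib (-0.27 ± 0.10) fell, at adjusted p of 0.027 or lower. Relb and Nfkb2 form the noncanonical NF-kappaB dimer, which lymphotoxin, BAFF, TWEAK and CD40 receptors engage. Relb rose by 3.18 ± 0.12 at day 3 and 3.53 ± 0.12 at day 21 (adjusted p = 2.2e-12 and 2.6e-12), and Nfkb2 by 2.99 ± 0.11 and 2.82 ± 0.11 (adjusted p = 1.9e-12 and 6.5e-12). The inhibitors Nfkbie (2.61 ± 0.14 and 3.35 ± 0.14) and Tnfaip3 (2.68 ± 0.18 and 2.85 ± 0.18) were the other two of the largest 4 at both days. Chuk, the kinase that activates this dimer, fell (-0.89 ± 0.14 and -1.48 ± 0.14, adjusted p = 2.1e-05 and 4.9e-08).

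Of 5 genes that process ectodomains, 2 were higher at day 1, 4 at days 3 and 21, and 1 was lower at day 21, where 28.5%, 57.6% and 60.7% of all genes were higher at the 3 days and 20.1% lower at day 21. Rhbdf2, which carries the TNF-shedding protease to the cell surface, rose at all 3 days (0.77 ± 0.17, 2.51 ± 0.17 and 2.27 ± 0.17, adjusted p = 0.0012, 2.2e-09 and 4.3e-09). That protease, Adam17, rose at days 3 and 21 (1.21 ± 0.10 and 1.70 ± 0.10, adjusted p = 1.1e-08 and 1.5e-10), as did Rhbdf1 (0.71 ± 0.12 and 1.02 ± 0.12), and Adam10 rose at every day (0.42 ± 0.11, 1.46 ± 0.11 and 1.06 ± 0.11). Furin, which cuts TWEAK, APRIL and BAFF precursors, fell at day 21 (-0.76 ± 0.10, adjusted p = 2.3e-06). The receptor Relt and the ligand Eda belong to the family without matching the symbol rule. Relt rose at all 3 days (0.60 ± 0.15, 1.18 ± 0.15 and 2.35 ± 0.15) and Eda at days 3 and 21 (0.49 ± 0.14 and 1.30 ± 0.14), at adjusted p of 0.0052 or lower.

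**Figure D4:**
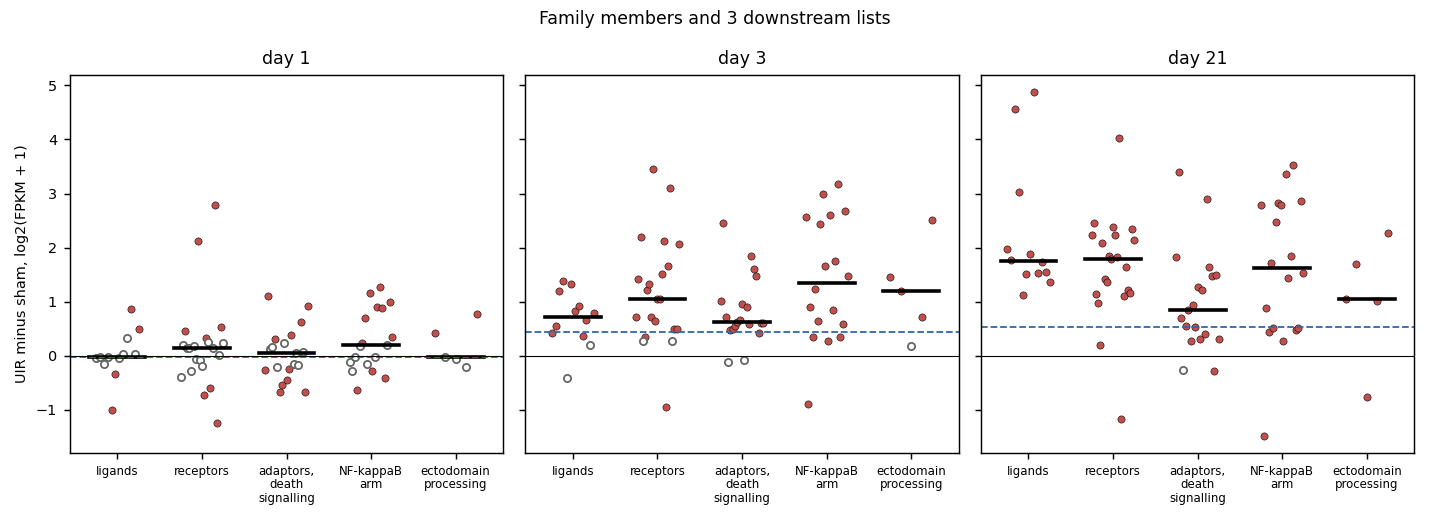
UIR minus sham differences on the log2(FPKM + 1) scale at days 1, 3 and 21 for ligands, receptors and 3 downstream lists, 1 point per gene, filled where the limma adjusted p was under 0.05; black bars are list medians and the dashed line is the median of all genes tested. At day 21 the medians of ligands (1.75) and receptors (1.80) lie above that of all genes (0.53), and the adaptor list (0.85) lies nearest to it.

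Ligands and receptors that bind each other were set side by side as 23 pairs, of which 10 hold a member below the filter. Both partners were higher in UIR kidneys in 0 pairs at day 1, 10 at day 3 and 13 at day 21. With 28 and 32 of 33 members higher at days 3 and 21, such counts follow largely from the single calls. Of the 13 pairs whose members were both tested, 6 hold Tnfsf14, Fasl, Tnfrsf13b or Cd40lg, which passed the filter through UIR libraries of day 21 alone, so for these the day-21 count was fixed in part by selection. The pairs of Tnf, Tnfsf9 and Tnfsf15 also hold members that passed through UIR libraries only. Their counts were likewise fixed in part. The partners of 2 pairs moved in opposite directions at day 1: Tnfsf12 fell while Tnfrsf12a rose, and Tnfsf15 rose while Tnfrsf25 fell. The levels of TWEAK and its receptor drew together over time. At day 1 UIR kidneys had 15.4 ± 1.81 FPKM of Tnfsf12 and 473 ± 110.3 of Tnfrsf12a, and at day 21 39.3 ± 5.05 and 46.5 ± 3.52 (SD, n = 3 each).

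Several members are neighbours in the RefSeq gene order. Ltb, Tnf and Lta lie side by side on chromosome 17, as do Tnfsf9, Cd70 and Tnfsf14. Tnfsf4, Tnfsf18 and Fasl do so on chromosome 1. Cd27, Ltbr and Tnfrsf1a lie on chromosome 6 with 1 protein-coding gene between each. Their day-21 differences were unlike: Cd27 2.23, Ltbr 0.19 and Tnfrsf1a 1.83. Of the chromosome 17 trio, Ltb rose by 4.57 and Tnf by 3.03, while Lta stayed at or below 1.50 FPKM.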

How the data were processed

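Total RNA of mouse kidney was sequenced by the submitters as 18 libraries, and the authors deposited 1 table of FPKM values per gene and library. Per the submitters' processing notes, the genome build was mm9 and the tools were RSEM 1.2.12, HISAT2 2.0.4 and Bowtie2 2.2.5, with no role stated for each tool, so it is unknown how reads shared by related genes were divided. Read counts and depth were not used here, and 27 gene symbols that a spreadsheet had turned into dates were restored through the Entrez identifiers of the table. Samples were grouped by the labels, 3 per group.

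Genes with at least 1 FPKM in at least 3 of 18 libraries (14716) were tested as log2(FPKM + 1) with limma 3.58.1 in R 4.3.3, with 1 mean per group, all 18 libraries sharing the estimate of spread (12 residual degrees of freedom), a variance trend, two-sided tests and Benjamini-Hochberg adjustment over all genes at 0.05. The scripts were tested on simulated data. Members and lists were chosen with earlier results of these data known. Values in every library are given for members past the threshold with a difference of at least 1 in a comparison of UIR with sham, and for Tnf. Fas, Ltbr and members below the filter are given by means or ranges, and each list by its 4 largest calls per direction. Alternatives changed the pseudocount (0.1 or 5), the filter (none or 5 FPKM), the unit (TPM), the scaling, the variance model, library weights, a replicate block, the groups in the fit and the day-1 control, and left out each library. Promoters and gene order came from RefSeq on GRCm38.p6, not mm9, so no gene coordinates in the authors' build are given.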

Additional observations from a re-analysis of the deposited data

Results flagged for a closer look

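The UIR effect differed between days by the test of the difference itself, as limma contrasts over 14716 genes. From day 1 to day 3 it was larger for 22 of 33 members, from day 3 to day 21 it was larger for 23 and smaller for 4, and from day 1 to day 21 it was larger for 29 and smaller for 2. Of all genes, 50.1% were larger and 12.7% smaller in the first of these contrasts, 26.1% and 20.2% in the second, and 54.1% and 16.3% in the last. Under quantile normalization 14 members were larger and 2 smaller from day 1 to day 3. These contrasts share libraries with each other. Members that passed the filter only with the UIR libraries of day 21 were selected in part for a larger effect at that day.

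For 4 members the effect passed the threshold in opposite directions at different days. Tnfrsf18 fell at day 1 and rose later, and its effect moved by 1.77 from day 1 to day 3 and by 2.95 from day 1 to day 21 on the log2(FPKM + 1) scale. The day-1 fall of Tnfrsf18 did not pass in limma against later sham (-0.31, adjusted p = 0.097). Tnfrsf25 moved by 2.47 and Tnfsf10 by 2.11 from day 1 to day 21. The day-21 rise of Tnfrsf25 did not pass in limma under quantile normalization (0.30, adjusted p = 0.11). Its day-1 fall was smaller against later sham (-0.56, adjusted p = 0.0023 in limma), where the groups overlapped. Tnfsf12 moved by 1.66 from day 1 to day 3 and by 1.85 from day 1 to day 21, but its day-1 fall was small and depended on single libraries and on the control used.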

How the results depend on the processing

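Each difference and count of the family members was recomputed under every alternative that could give one. Values of the downstream and marker lists are given under the main settings only and were not compared across the alternatives. Of the recomputed differences between UIR and sham of single members, 930 at day 1, 893 at day 3 and 939 at day 21 kept their side of the threshold and, where called, their direction. Values that passed in neither fit could change sign, as Tnf did at day 1 (-0.03, and 0.15 with later sham as control). At day 1, 36 gained and 10 lost a call and 2 reversed. At day 3, 22 gained, 26 lost and 4 reversed, and at day 21, 0 gained, 5 lost and 1 reversed.

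With the later sham groups as the day-1 control, 15 members were higher in place of 7, and Tnfsf12 (0.19) and Tnfsf13 (0.62) turned positive. Under median-of-ratios scaling Ltbr turned negative at day 3 (-0.18) and day 21 (-0.39), and in its effect from day 1 to day 3 (-0.36) and to day 21 (-0.57). Members lower then numbered 3 at day 3 and 2 at day 21, and members with a smaller effect 2 from day 1 to day 3 and 4 from day 1 to day 21. Quantile normalization turned Fas (-0.38), Tnfrsf26 (-0.03) and Tnfsf14 (-0.04) at day 3, the effects of Fas (-0.54) and Tnfrsf26 (-0.12) from day 1 to day 3, and those of Eda2r (-0.17), Tnfsf15 (-0.11) and Tnfsf9 (-0.05) from day 1 to day 21. It left 16 members higher and 3 lower at day 3, 14 larger and 2 smaller from day 1 to day 3, and 7 lower in UIR day 1 against later sham.

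With the filter at 5 FPKM fewer members were tested, and higher members numbered 4, 18 and 20 at days 1, 3 and 21. No member still tested under this filter changed its call between UIR and sham of the same day, so these lower counts are not lost calls. Larger effects then numbered 13 from day 3 to day 21 and 17 from day 1 to day 21, 1 member was lower in sham day 1 and 2 in UIR day 1 against later sham. No filter, library weights or fitting only the groups compared gave 2 lower members at day 3. Library weights gave 2 smaller effects from day 1 to day 3. A pseudocount of 0.1 gave 1 smaller effect from day 1 to day 21 and 7 lower members in UIR day 1 against later sham. TPM gave 1 smaller effect from day 1 to day 21, and fitting only the groups compared gave 7 lower members in UIR day 1 against later sham. Except for the changed filter, the cause was not tested.

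Leaving out 1 library at a time gave 5 to 9 higher and 4 to 7 lower members at day 1, 25 to 29 and 1 to 2 at day 3, and 31 to 32 and 1 to 1 at day 21. Larger and smaller effects numbered 21 to 23 and 0 to 1 from day 1 to day 3, 23 to 24 and 4 to 4 from day 3 to day 21, and 29 to 29 and 1 to 2 from day 1 to day 21. Sham day 1 had 12 to 14 higher and 2 to 2 lower against later sham, and UIR day 1 had 15 to 16 and 4 to 6. Without the third UIR library of day 3, 29 members were higher and 1 lower at that day.

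The replicate numbers did not pair the samples: correlations of same-numbered deviations ran from -0.135 to 0.175. With a replicate block, members higher and lower numbered 7 and 5, 28 and 1, and 32 and 1 at days 1, 3 and 21, the same counts as without it. Levels under 1 FPKM rest on few reads, and read counts were not used here.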
